A study of Mus musculus with 8 samples.

Results

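Myeloid cytokine receptors are the surface proteins through which blood progenitors and their myeloid progeny receive colony-stimulating factors and interleukins. The 8 genes described here were chosen by name, from what is known of their products, and are 8 of the 23284 gene symbols in the deposited tables. They are *Csf2ra* and *Il3ra*, the ligand-binding alpha chains for GM-CSF and IL-3, *Csf2rb* and *Csf2rb2*, the beta chains that signal with them, *Csf1r* and *Csf3r*, the receptors for M-CSF and G-CSF, and *Il6ra* and *Il6st*, the ligand-binding chain for IL-6 and its signaling partner gp130. All 8 were found in both tables.

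The study deleted *Pcgf1*, which encodes a subunit of a variant Polycomb repressive complex 1, in mouse hematopoietic progenitors and measured their poly(A) RNA by RNA-seq. There were 8 libraries, 2 in each of 4 groups. IdHPCs are bone marrow LSK cells (lineage-negative, Sca-1+ and c-Kit+) that carry the differentiation inhibitor *Id3* and were grown on TSt-4 stromal feeder cells with IL-7, SCF and Flt3 ligand, so that this stage is held in culture. The control IdHPC libraries are labelled *Pcgf1* fl/fl and the others *Pcgf1*-/-, referred to as *Pcgf1*-KO, and the study induced the deletion of exons 2 to 7 in cells carrying Cre-ERT2, a Cre recombinase that becomes active with 4-hydroxytamoxifen (4-OHT), over 4 days. Controls of other assays on IdHPCs are described as given ethanol in place of 4-OHT, which is not stated for the control libraries used here. LMPPs, lymphoid-primed multipotent progenitors, were isolated from the bone marrow of *Pcgf1* fl/fl mice (control) and ERT2-Cre:*Pcgf1* fl/fl mice (*Pcgf1*-KO), and 4-OHT was present throughout the 4-day culture of either group. For a PCR assay on sorted LMPPs the study describes such a culture as grown on TSt-4 feeder cells with IL-7, SCF and Flt3 ligand. Feeders and cytokines are not stated separately for the LMPP libraries used here. The labels give all 8 libraries the strain B6CBAF1/J and passage 15-18. The study describes its mice in general as young females, and the labels give no age. The controls of both cell types carry the floxed alleles but no active Cre is stated for them, so the action of the recombinase and the loss of *Pcgf1* cannot be told apart. The labels number 2 replicates in each group without saying which culture or animal each came from, so the p-values measure only the spread between these libraries.

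GM-CSF and IL-3 each bind a private alpha chain, which then joins a shared beta chain and starts signaling through the kinase JAK2 and the transcription factor STAT5. M-CSF acts through CSF1R, a receptor tyrosine kinase on which monocytes and macrophages depend, and G-CSF acts through CSF3R on neutrophils and their precursors. IL-6 binds IL6RA, and the pair then engages gp130, which is present in many tissues, is shared by IL-11, LIF and oncostatin M, and signals chiefly through STAT3. In the mouse the locus of the beta chain is doubled: *Csf2rb* encodes the chain shared by GM-CSF, IL-3 and IL-5, and *Csf2rb2* encodes a chain that serves IL-3 alone.

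The labels were first set against the reads on *Pcgf1*. In IdHPCs the rows of the table for *Pcgf1* exons 2 to 7 held 193 and 173 reads in the control libraries and 15 and 15 in the *Pcgf1*-KO libraries. In LMPPs the same rows held 84 reads in control 1, 76 in the library labelled *Pcgf1*-KO 1, 0 in the library labelled control 2 and 0 in *Pcgf1*-KO 2, where 3 reads are taken as the floor. The LMPP labels and these reads thus go against each other for 1 library of each label. Therefore 2 contrasts are given for LMPPs, one by label and one that sets the libraries without reads on these exons (control 2 and *Pcgf1*-KO 2) against those with reads (control 1 and *Pcgf1*-KO 1). The second was chosen because of the measured reads and makes no statement on genotype, and it coincides with the replicate number, so that *Pcgf1* exons and anything else that separated replicates 1 from replicates 2 cannot be told apart.

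The libraries held between 9618849 and 25302206 reads on distinct rows, and the LMPP libraries were the shallower ones. Levels are in CPM, read counts scaled to a common library total, and 1 read was worth between 0.0287 and 0.0757 CPM. Progenitor markers were present in both cell types, with *Cd34*, *Flt3*, *Kit* and the other 4 of a list of 7 above 0 in every library. Mature myeloid markers differed between the tables: 13 genes summed to between 32.6 and 48.7 CPM in IdHPCs, with 5 of them at 0, and to between 2222 and 2547 CPM in LMPPs. The 18 stromal feeder markers were collagens and other matrix genes, with *Pdgfra*, *Pdgfrb*, *Cxcl12*, *Acta2*, *Tagln* and *Cald1*. They summed to 4530 and 3833 CPM in the control IdHPCs and to 8771 and 6450 CPM in the *Pcgf1*-KO IdHPCs. In each IdHPC library 2 of the 18 were at 0. Their sum in LMPPs was 66.4 to 102 CPM, most of it from *Pdgfrb* (35.1 to 56.8 CPM) and *Thbs1* (27.4 to 39.7 CPM). In such bulk samples fewer cells of a type and less RNA per cell cannot be told apart.

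The promoters of 3 receptor genes are shown because PCGF1 belongs to a complex that is recruited to unmethylated CpG-rich DNA through its partner KDM2B, and the receptor genes differ widely in CpG content. Each sequence runs from 250 bases before the annotated start of the gene to 50 bases after it, on the strand of the gene, as RefSeq gives it for GRCm38.p6, with every CG in capitals. *Il6ra* lies at chr3:89913147-89913446 on the minus strand, *Il6st* at chr13:112463820-112464119 on the plus strand and *Csf2rb2* at chr15:78305672-78305971 on the minus strand.
Il6ra: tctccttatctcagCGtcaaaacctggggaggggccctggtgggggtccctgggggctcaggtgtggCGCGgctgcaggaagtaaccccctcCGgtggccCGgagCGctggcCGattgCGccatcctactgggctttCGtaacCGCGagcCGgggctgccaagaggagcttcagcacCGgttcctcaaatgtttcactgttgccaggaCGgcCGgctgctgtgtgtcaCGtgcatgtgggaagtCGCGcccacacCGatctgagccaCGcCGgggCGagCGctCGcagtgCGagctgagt
Il6st: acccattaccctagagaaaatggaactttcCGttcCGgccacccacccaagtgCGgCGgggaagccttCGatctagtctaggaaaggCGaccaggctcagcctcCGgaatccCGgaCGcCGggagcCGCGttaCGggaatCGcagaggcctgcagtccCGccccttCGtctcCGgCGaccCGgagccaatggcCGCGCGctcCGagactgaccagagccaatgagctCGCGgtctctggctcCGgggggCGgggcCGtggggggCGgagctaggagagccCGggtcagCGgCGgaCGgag
Csf2rb2: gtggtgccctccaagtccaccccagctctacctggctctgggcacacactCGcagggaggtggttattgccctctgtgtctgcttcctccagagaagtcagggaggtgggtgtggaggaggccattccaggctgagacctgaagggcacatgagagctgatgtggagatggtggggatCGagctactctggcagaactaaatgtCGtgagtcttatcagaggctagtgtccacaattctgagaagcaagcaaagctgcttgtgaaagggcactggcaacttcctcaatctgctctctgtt
The *Il6ra* window holds 25 CG, more than 81.6% of 32851 mouse promoters of this length, the *Il6st* window 33, and the *Csf2rb2* window 3, where the median promoter holds 7. Of the others, the windows of *Il3ra*, *Csf2ra* and *Csf3r* hold 35, 23 and 9 CG. *Csf1r* and *Csf2rb* were not matched in the promoter table. The core GAGGAA, bound by PU.1 and other ETS factors, was searched on both strands and stood in 28.3% of all promoters and in the windows of *Csf2ra* and *Csf2rb2* (2 matches each) and *Csf3r* and *Il6ra* (1 each). The loose C/EBP pattern TTNNGNAA stood in 40.7% of all promoters and in the windows of *Csf2rb2* and *Il6ra* (2 matches each) and *Csf2ra* and *Il3ra* (1 each). These matches are letters in a window and not sites of binding, since no binding data were analysed here. The study lists *Il6ra* among genes that PCGF1 and RING1B bind and that carry H3K27me3 in IdHPCs, and among its myeloid-related genes of that class. That list was drawn up on the study's own samples and is no independent evidence of a direction.

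Apart from *Il6st*, the receptor genes stood at lower CPM in every IdHPC library than in every LMPP library, as shown in the plot of CPM by library. In LMPPs every receptor gene lay between 29.8 and 118 CPM. In IdHPCs the levels ran from 0.105 to 93.9 CPM. The 2 tables were normalized separately, so these levels stand side by side with no test.

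**Figure D1:**
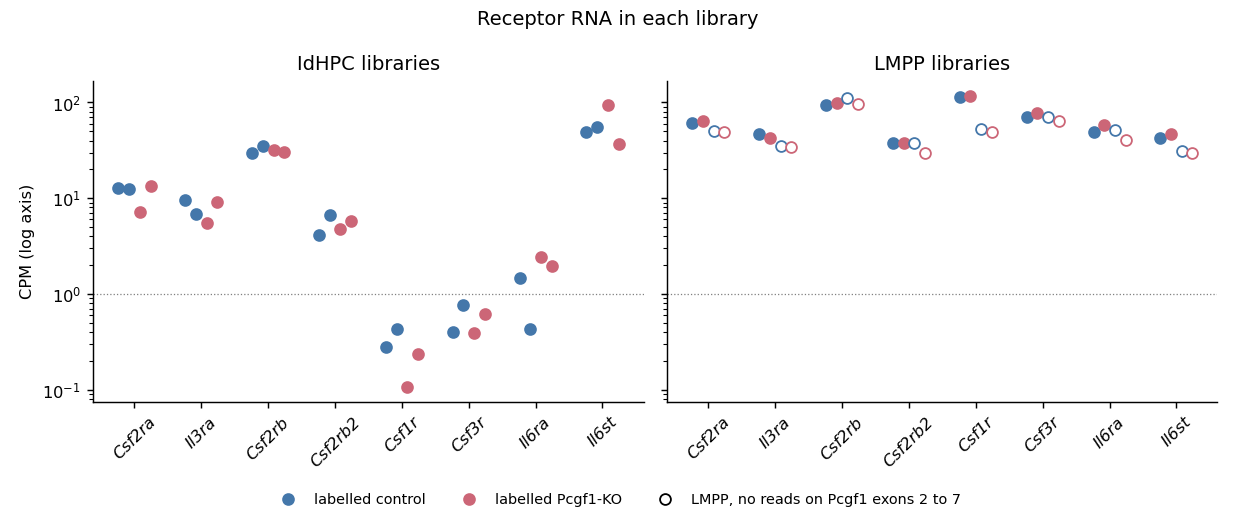
CPM of the 8 receptor genes in each library, on a log axis, with IdHPC libraries on the left and LMPP libraries on the right; each point is 1 library, blue for control and red for *Pcgf1*-KO by label, and open circles mark the LMPP libraries with 0 reads on *Pcgf1* exons 2 to 7. *Csf1r* and *Csf3r* lie below the dotted line at 1 CPM in all 4 IdHPC libraries, and the open circles of *Csf1r*, at 52.9 and 49.2 CPM, lie apart from the filled ones at 114 and 118 CPM.

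Levels can be compared between genes only per length. Per kb of annotated exon, *Il6st* was the highest receptor gene in control IdHPCs (10.0 ± 0.806 CPM per kb, SD, n = 2), followed by *Csf2ra* (6.81 ± 0.138), *Csf2rb* (6.37 ± 0.734) and *Il3ra* (5.90 ± 1.45), of which the last 3 did not differ beyond their spread. *Csf2rb2* stood lower (1.17 ± 0.379 CPM per kb), and *Il6ra* (0.284 ± 0.220), *Csf3r* (0.141 ± 0.0641) and *Csf1r* (0.0674 ± 0.0209) were at the bottom. The order in LMPPs was another one. The alpha chains *Csf2ra* (30.0 ± 3.84 CPM per kb) and *Il3ra* (29.3 ± 5.89) were the highest in the libraries labelled control and lay within each other's spread, *Csf2rb* (20.2 ± 2.21), *Csf3r* (17.0 ± 0.213), *Csf1r* (15.9 ± 8.22) and *Il6ra* (15.2 ± 0.538) came next, with the *Csf1r* mean standing between 2 libraries far apart, and *Csf2rb2* (8.19 ± 0.0033) and *Il6st* (7.04 ± 1.54) were the lowest. *Il6st* thus led the list per kb in control IdHPCs and stood at its lower end in LMPPs, where *Csf2rb2* lay within its spread in the libraries labelled control and below it in *Pcgf1*-KO 1. In CPM, without the scaling by length, it stood at 52.0 ± 4.20 in control IdHPCs and 36.7 ± 7.995 in the LMPP libraries labelled control. The summed stromal feeder markers were higher in IdHPCs than in LMPPs (levels above), and their part in these receptor levels was not tested.

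Of the receptor genes, 6 reached the minimum of 1 CPM in at least 1 IdHPC library and were tested with limma on log2(CPM + 1), and *Csf1r* and *Csf3r* did not. None of the 6 passed an adjusted p of 0.05 between *Pcgf1*-KO and control IdHPCs, where 0.53% of the 12273 genes tested passed (33 higher and 32 lower), and 1 of the 6 had an unadjusted p under 0.05. DESeq2 and both edgeR tests also called 0 receptor genes. By label, LMPPs gave no call among the 8 receptor genes, of which all were tested, and 0% of 12153 genes passed by limma, edgeR or DESeq2, with 2 at an unadjusted p under 0.05 by limma. Between the LMPP libraries without and with reads on *Pcgf1* exons 2 to 7, 17.2% of the 12153 genes passed (1229 higher and 860 lower in the libraries without reads), and 4 of the 8 receptor genes did: *Csf1r*, *Il6st*, *Il3ra* and *Csf2ra*, all lower. The median difference of the 8 receptor genes in that contrast was -0.27 on the log2 scale, beside -0.016 for all genes tested.

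**Figure D2:**
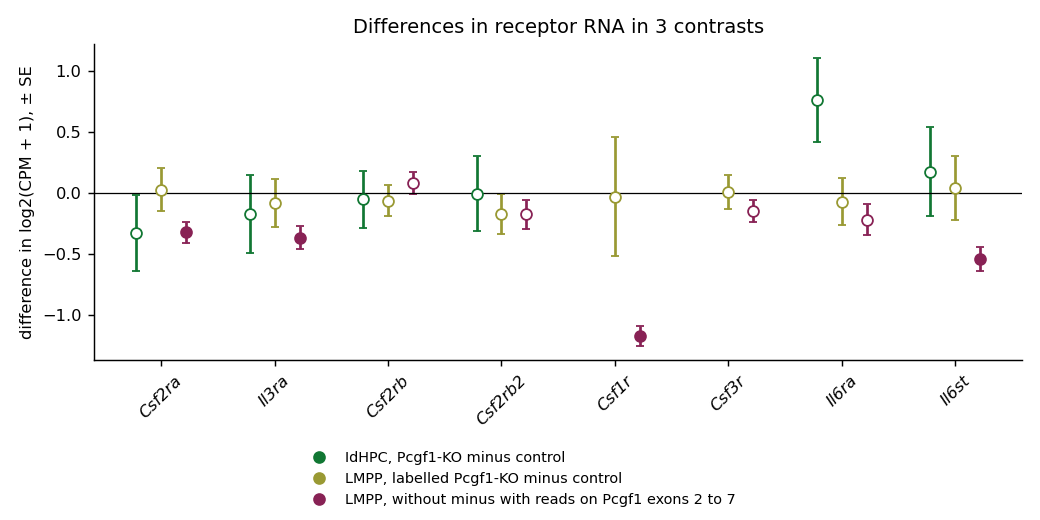
Difference in log2(CPM + 1) of each receptor gene in the 3 contrasts, with bars of 1 SE from limma; filled points passed an adjusted p of 0.05. *Csf1r* at -1.17, *Il6st* at -0.54, *Il3ra* at -0.36 and *Csf2ra* at -0.32 are the filled points, all in the LMPP contrast by reads on *Pcgf1* exons 2 to 7, and *Csf1r* and *Csf3r* have no IdHPC point because they did not reach 1 CPM.

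*Csf2ra*, the GM-CSF alpha chain, is annotated on mm9 at chromosome 19, 61300305 to 61304321, on the minus strand. It gave 12.8 and 12.4 CPM in control IdHPCs and 7.23 and 13.4 CPM in *Pcgf1*-KO IdHPCs, so that the first *Pcgf1*-KO library was low and the second lay above both controls. The difference was -0.32 on the log2(CPM + 1) scale (SE 0.31, limma adjusted p = 0.668), and it was 0.08 without *Pcgf1*-KO replicate 1. LMPPs had 60.5 CPM in control 1 and 64.4 in *Pcgf1*-KO 1, and 50.4 in control 2 and 49.4 in *Pcgf1*-KO 2. The libraries without reads on *Pcgf1* exons 2 to 7 lay below the other pair, by 0.32 (SE 0.087, adjusted p = 0.0324), and the rows of the gene were lower on average in those libraries in 12 of 12 cases. That call was lost on leaving out any 1 of the 4 LMPP libraries, with adjusted p between 0.0652 and 0.192.

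*Il3ra*, the IL-3 alpha chain, lies on chromosome 14, 15179009 to 15188004, on the plus strand. Its IdHPC values were 9.64 and 6.79 CPM in controls and 5.48 and 9.13 CPM in *Pcgf1*-KO, and the groups overlapped. The difference was -0.17 (SE 0.32, limma adjusted p = 0.842), with the sign turning on leaving out control replicate 1 (0.056) or *Pcgf1*-KO replicate 1 (0.15). In LMPPs the values were 46.6 CPM in control 1, 42.7 in *Pcgf1*-KO 1, 35.0 in control 2 and 34.0 in *Pcgf1*-KO 2. Here too both libraries without reads lay below both with reads, by 0.36 (SE 0.095, adjusted p = 0.0277). The call was kept without *Pcgf1*-KO replicate 1 and lost without any 1 of the other 3 libraries (adjusted p of 0.187, 0.0751 and 0.102). By label the same libraries gave -0.082 (SE 0.20) for *Il3ra* and 0.031 (SE 0.18) for *Csf2ra*, and the labelled groups overlapped for both alpha chains.

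The beta chain genes *Csf2rb* (chromosome 15, 78156420 to 78184277, plus strand) and *Csf2rb2* (chromosome 15, 78112947 to 78136052, minus strand) stand side by side and are near-identical. Their coding sequences in GENCODE vM1, 2691 and 2637 bases long, were identical at 95.2% of 2631 aligned positions, and 26.3% of the 50-base windows of the *Csf2rb* coding sequence occur letter for letter in *Csf2rb2*. The stretches below are the 90 aligned bases in which they differ most, positions 308 to 397 of the *Csf2rb* coding sequence and 311 to 400 of that of *Csf2rb2*, with the 16 differing bases in capitals.
Csf2rb: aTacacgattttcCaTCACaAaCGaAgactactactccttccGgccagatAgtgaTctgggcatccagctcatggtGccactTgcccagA
Csf2rb2: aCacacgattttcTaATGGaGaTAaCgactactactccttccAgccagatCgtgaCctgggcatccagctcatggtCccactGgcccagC
Their longest identical run is 242 bases, positions 2083 to 2324 of both coding sequences, in which a read cannot be assigned to one gene by its letters.
Csf2rb and Csf2rb2: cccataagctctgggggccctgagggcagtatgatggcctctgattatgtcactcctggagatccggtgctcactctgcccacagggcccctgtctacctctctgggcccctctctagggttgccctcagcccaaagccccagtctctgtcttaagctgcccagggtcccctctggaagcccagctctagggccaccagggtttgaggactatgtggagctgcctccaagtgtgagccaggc
How the authors' counting treated reads that match both genes is not given in the sources used here, so the split between the pair and its sum are both uncertain.

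*Csf2rb* gave 29.7 and 34.9 CPM in control IdHPCs and 31.6 and 30.7 CPM in *Pcgf1*-KO IdHPCs, with both *Pcgf1*-KO libraries inside the control range. Its difference was -0.047 (SE 0.23, limma adjusted p = 0.944), and it was -0.36 without the last row (adjusted p = 0.723). *Csf2rb2*, the IL-3-specific chain, gave 4.16 and 6.65 CPM in controls and 4.81 and 5.79 CPM in *Pcgf1*-KO, and the difference was -0.00097 (SE 0.30, adjusted p = 0.999). The summed level of the pair was 33.8 and 41.6 CPM in controls and 36.4 and 36.5 CPM in *Pcgf1*-KO. In LMPPs *Csf2rb* was 94.7 CPM in control 1, 99.7 in *Pcgf1*-KO 1, 110 in control 2 and 96.7 in *Pcgf1*-KO 2, and *Csf2rb2* was 37.9, 38.0, 37.9 and 29.8 CPM in the same order. Neither gene separated the libraries by label or by reads on *Pcgf1* exons 2 to 7, where the differences were 0.088 (SE 0.090, adjusted p = 0.568) for *Csf2rb* and -0.17 (SE 0.12, adjusted p = 0.392) for *Csf2rb2*. *Csf2rb* was the single receptor gene whose mean was higher in the libraries without reads, and without control replicate 2 it was -0.0072. *Csf2rb2* made up 12.3% to 15.99% of the summed CPM of the pair in IdHPCs and 23.6% to 28.6% in LMPPs.

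*Csf1r*, the M-CSF receptor, gave the widest difference on the log2(CPM + 1) scale among the receptor genes tested in the 3 contrasts, although with a pseudocount of 0.1 that of *Il6ra* in IdHPCs, which did not pass, was wider (1.33). It is annotated on chromosome 18, 61265226 to 61291803, on the plus strand, where it overlaps *Hmgxb3*. In LMPPs it stood at 114 CPM in control 1 and 118 in *Pcgf1*-KO 1, and at 52.9 in control 2 and 49.2 in *Pcgf1*-KO 2. The values thus formed a high pair and a low pair, each with 1 library of either label. By label the group means were 83.3 ± 43.0 and 83.6 ± 48.6 CPM (SD, n = 2) and the difference was -0.026 (SE 0.49, limma adjusted p = 0.99997). Between the libraries without and with reads on *Pcgf1* exons 2 to 7 it was -1.17 (SE 0.084, adjusted p = 3.59e-05). Its sign and its call held in all 15 alternative settings tried, with differences from -1.22 to -1.11 and adjusted p from 9.95e-29 to 0.0021.

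Row by row, both libraries without reads lay below both libraries with reads in each of the 21 *Csf1r* rows, of 22, that had reads in every library, so the difference ran along the whole transcript. Rows of 1 gene share their cells and are not replicates. The last row took 15.4% to 17.5% of the *Csf1r* reads in the 4 libraries, and without it the difference was -1.16.

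**Figure D3:**
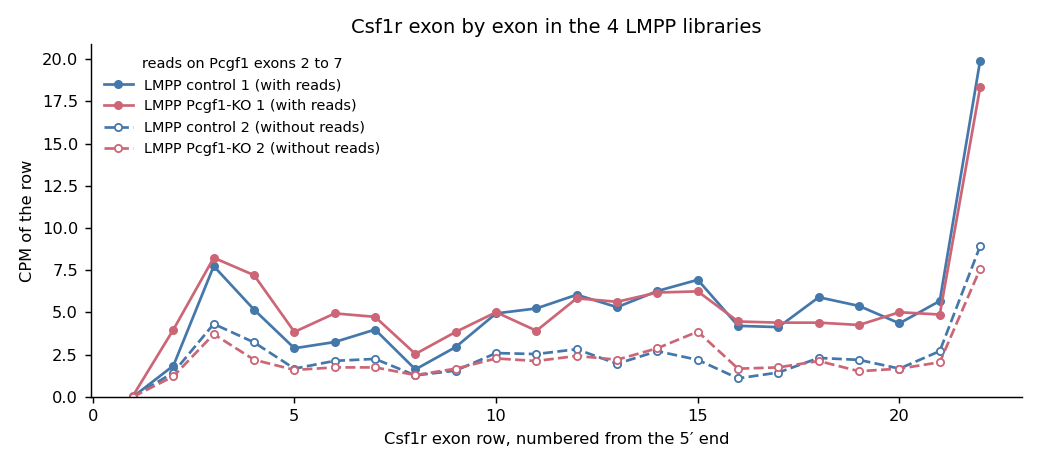
CPM of each of the 22 *Csf1r* exon rows, numbered from the 5′ end, in the 4 LMPP libraries; solid lines with filled points are the libraries with reads on *Pcgf1* exons 2 to 7 and dashed lines with open points those without, blue for control and red for *Pcgf1*-KO by label. From row 2 on, both dashed lines lie below both solid lines.

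In IdHPCs *Csf1r* was close to the floor. Controls held 9 and 15 reads (0.276 and 0.430 CPM) and *Pcgf1*-KO libraries 3 and 5 reads (0.105 and 0.235 CPM), where 3 reads are the floor, and no fold is given.

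*Csf3r*, the G-CSF receptor (chromosome 4, 125701794 to 125722219, plus strand), was present in LMPPs and at 11 to 27 reads in IdHPCs. LMPPs had 70.9 CPM in control 1, 78.0 in *Pcgf1*-KO 1, 69.7 in control 2 and 64.7 in *Pcgf1*-KO 2. Both libraries without reads on *Pcgf1* exons 2 to 7 lay below both with reads, but by only 0.15 (SE 0.090, limma adjusted p = 0.320), so *Csf3r* did not pass the test that *Csf1r* passed. In IdHPCs it gave 13 and 27 reads in controls and 11 and 13 in *Pcgf1*-KO, between 0.386 and 0.774 CPM. All of these reads, 100% in each library, fell on the last of the 18 distinct rows, where LMPP libraries had 16.7% to 20.4%, and the other 17 rows held 0 reads in IdHPCs. Expression of the *Csf3r* transcript over its other exons was therefore not detectable in IdHPCs at this depth.

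*Il6ra*, the ligand-binding chain for IL-6 (chromosome 3, 89673246 to 89717084, minus strand), was the only one of the 6 tested receptor genes whose *Pcgf1*-KO and control IdHPC libraries did not overlap. It had 1.47 and 0.430 CPM in controls (48 and 15 reads) and 2.42 and 1.98 CPM in *Pcgf1*-KO (69 and 42 reads). Groups did not overlap for 46.9% of all 12273 genes tested. The difference was 0.76 (SE 0.34, limma adjusted p = 0.342), which did not pass the adjusted threshold, and its adjusted p lay between 0.163 and 0.99996 over 15 alternative settings. The controls differed among themselves by more than the second *Pcgf1*-KO library differed from the first control. The excess sat on the last row of the gene, with 0.459 and 0.315 CPM in controls and 1.54 and 1.46 CPM in *Pcgf1*-KO. On the other 9 rows the values were 1.01 and 0.115 CPM in controls and 0.878 and 0.518 CPM in *Pcgf1*-KO, and these overlapped. On the log2 scale the difference was 0.17 without the last row and 1.33 at its highest, under a pseudocount of 0.1. Stromal feeder markers moved in the same libraries, with 15 of 16 tested higher in *Pcgf1*-KO (2 of them past the threshold, median 0.89), and their part in the *Il6ra* values was not tested. In LMPPs *Il6ra* stood at 49.5 CPM in control 1, 57.7 in *Pcgf1*-KO 1, 52.0 in control 2 and 40.6 in *Pcgf1*-KO 2. Those values overlapped both by label (difference -0.066, SE 0.19) and by reads on *Pcgf1* exons 2 to 7 (difference -0.21, SE 0.13, adjusted p = 0.307).

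*Il6st*, which encodes gp130 (chromosome 13, 113265216 to 113297068, plus strand), varied most among the *Pcgf1*-KO IdHPC libraries. Controls gave 49.1 and 55.0 CPM, and the *Pcgf1*-KO libraries gave 93.9 and 36.8 CPM, 1 above and 1 below both controls. The difference of the means was 0.18 (SE 0.36, limma adjusted p = 0.856), and it was -0.49 without *Pcgf1*-KO replicate 1, 0.84 without *Pcgf1*-KO replicate 2 and -0.054 without the last row. The low library also had the largest share of its *Il6st* reads on the last row, 66.6% against 49.2% to 53.8% in the other 3, with 12.3 CPM left on the other 16 rows against 25.0 and 25.4 in controls and 46.9 in *Pcgf1*-KO 1. The same library stood apart for *Csf2rb* (77.1% on the last row against 60.4% to 62.6%), but not for *Csf2rb2* (74.0%, against 75.0% in control 1) or *Csf2ra* (21.8%, against 25.2% in control 1), and stood apart over 6985 well-covered genes, where 27.2% of reads fell on the last row against 21.8% to 23.4%. The stromal feeder markers summed to 8771 CPM in the high library, *Pcgf1*-KO 1, and to 6450 CPM in the low one, *Pcgf1*-KO 2, against 4530 and 3833 CPM in controls. The part of the 3′ share and of these markers in the *Il6st* values was not tested.

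**Figure D4:**
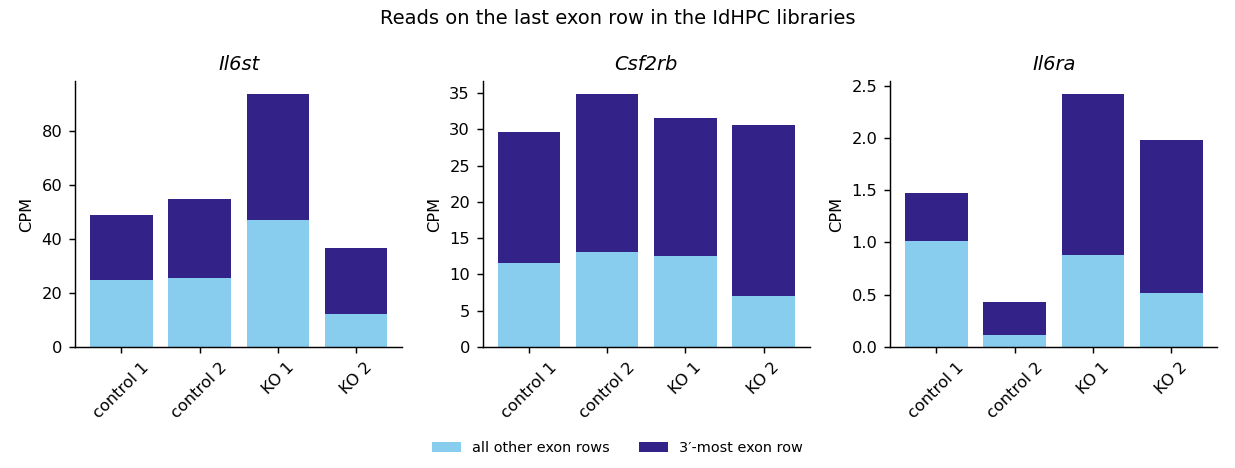
CPM of *Il6st*, *Csf2rb* and *Il6ra* in the 4 IdHPC libraries, split into the 3′-most exon row (dark) and all other rows (light); each bar is 1 library and the axes start at 0 and differ between genes. In *Pcgf1*-KO 2 the light part of *Il6st* is 12.3 CPM against 25.0 and 25.4 CPM in controls, while the dark part, 24.5 CPM, is close to the 24.1 CPM of control 1.

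In LMPPs *Il6st* separated by the reads on *Pcgf1* exons 2 to 7, with 42.3 CPM in control 1 and 47.0 in *Pcgf1*-KO 1 against 31.0 in control 2 and 29.8 in *Pcgf1*-KO 2. The difference was -0.54 (SE 0.099, limma adjusted p = 0.0045), and it passed with any 1 library left out (adjusted p from 0.00083 to 0.0262), in fits that leave 1 library on one side, assumed to vary like the pair on the other. Without the last row it was -0.43 and no longer passed (adjusted p = 0.0951). By label it was 0.045 (SE 0.26). In that contrast by reads, 5 of the 8 receptor genes did not overlap between the pairs of libraries (the 4 called and *Csf3r*), all lower in the libraries without reads, beside 56.6% of all 12153 genes tested. By label 0 of 8 did, beside 12.2% of all genes.

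Myeloid markers differed in the same LMPP libraries as *Csf1r*. Of 13 listed, 9 were tested and 4 passed, all lower without reads on *Pcgf1* exons 2 to 7, beside 17.2% of all 12153 genes in either direction. *Itgam*, the CD11b integrin chain of myeloid cells, went from 74.0 CPM in control 1 and 83.1 in *Pcgf1*-KO 1 to 31.8 and 31.5 in the libraries without reads (difference -1.28). *Lyz2*, lysozyme of granulocytes and macrophages, went from 93.0 and 77.7 to 37.1 and 39.6 CPM (-1.13), and *Prtn3* (-0.35) and *Emr1*, the F4/80 antigen (-0.81), were the other 2. *Mpo*, the myeloperoxidase of granulocyte-monocyte progenitors, lay between 1874 and 1996 CPM and did not pass (-0.077, adjusted p = 0.584), nor did *Elane* (-0.17, adjusted p = 0.391). Of the 9 tested, 7 had a lower and 2 a higher mean without reads. The latter were *Fcgr3*, an Fc receptor chain (0.17), and *Cd14*, a monocyte antigen (0.067), neither of which passed. Among the 7, *S100a9* did not pass and was tested only because it reached 1.25 CPM in control 1, a library with reads. It stood at 0.755 CPM in *Pcgf1*-KO 1, 0.460 in control 2 and 0.681 in *Pcgf1*-KO 2, so its direction is tied to the filter and carries no weight in this count. The summed level of the list was 2547 and 2507 CPM with reads and 2222 and 2296 CPM without. The part of more differentiated myeloid cells in the *Csf1r* values was not tested. Of the other marker lists, progenitor genes gave 1 call higher (*Kit*) and 2 lower (*Ly6a* at -1.83 and *Il7r*) among 7, erythroid genes 1 higher among 3 (*Epor*, which was tested only because it reached 1 CPM in the libraries without reads), stromal feeder genes 1 higher (*Pdgfrb* at 0.56) among 5, and mast cell and basophil (3 tested) and B lineage genes (1 tested) none. In IdHPCs the calls among the marker lists were the stromal feeder genes *Col1a2* (1.27) and *Sparc* (1.36), and by label in LMPPs there were 0.

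Among transcription factors known to act on the receptor genes, 8 were tested and 6 passed in the same contrast, 3 in each direction, where 17.2% of all genes passed (1229 higher and 860 lower). *Irf8*, a driver of monocyte and dendritic cell fates, fell from 545 and 557 CPM to 355 and 338 CPM (-0.67, adjusted p = 0.00029). *Klf4*, a monocyte factor, fell from 2.43 and 3.71 CPM to 1.04 and 0.757 CPM (-1.09), and *Spi1*, which encodes PU.1 and is listed as *Sfpi1*, fell from 150 and 141 to 116 and 124 CPM (-0.28, adjusted p = 0.0425). *Cebpa*, the C/EBP factor required for granulocyte-monocyte progenitors, rose from 152 and 154 to 191 and 198 CPM (0.34), as did *Cebpb* (0.39) and *Gfi1*, a repressor active in granulocytes (0.77). *Runx1* (0.079) and *Cebpe* (-0.29) did not pass.

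**Figure D5:**
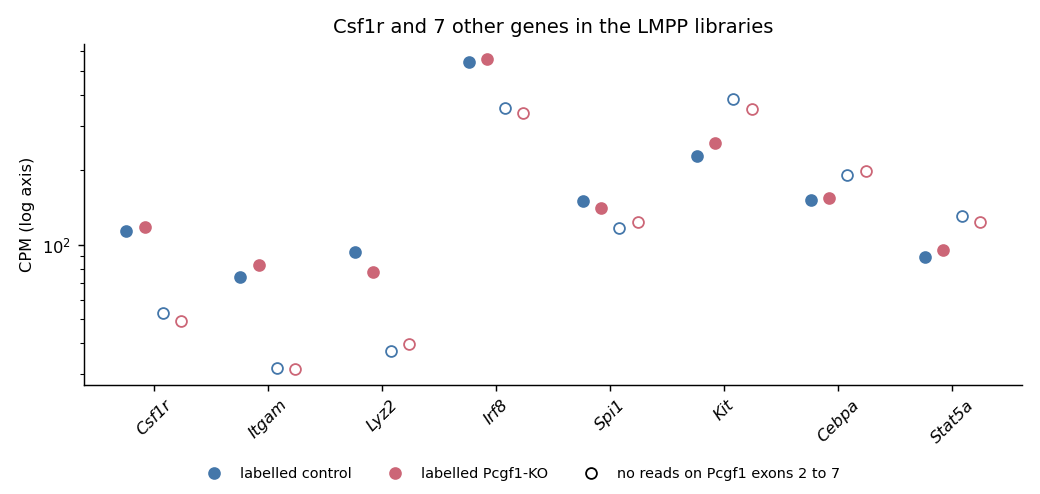
CPM of *Csf1r* and 7 other genes in the 4 LMPP libraries, on a log axis; each point is 1 library, blue for control and red for *Pcgf1*-KO by label, open where there are no reads on *Pcgf1* exons 2 to 7. *Csf1r*, *Itgam*, *Lyz2*, *Irf8* and *Spi1* are lower in both open libraries, and *Kit*, *Cebpa* and *Stat5a* are higher.

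Genes of the signaling chain below the receptors gave calls in the same LMPP contrast, in which 17.2% of all 12153 genes passed. Of 4 JAK kinases, *Jak1* (0.34) and *Jak3* (0.48) rose in the libraries without reads on *Pcgf1* exons 2 to 7, and *Jak2*, the kinase of the GM-CSF and IL-3 receptors, was at 0.029 (limma adjusted p = 0.870) and *Tyk2* at -0.015. *Stat3* (0.31), the main factor below gp130, and *Stat5a* (0.46) and *Stat5b* (0.47), the factors below the beta chain, rose as well. Among 8 adaptors and phosphatases 1 passed, *Gab2*, at 0.61, and *Ptpn6*, the phosphatase SHP-1, was the lowest at -0.16 (adjusted p = 0.174). Of 6 feedback inhibitors and STAT targets, *Socs3* rose (0.87), *Socs1* (-0.77) and *Socs2* (-0.59) fell, and *Cish* (-0.11), *Pim1* (-0.23) and *Bcl2l1* (-0.17) did not pass.

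Receptors for the cytokines used in culture gave 1 call in each direction among 4 genes in that contrast, beside the same 17.2%. *Kit*, the SCF receptor, rose from 228 and 258 to 384 and 352 CPM (0.60). *Il7r*, the IL-7 receptor chain, fell from 3.47 and 3.23 to 1.15 and 0.681 CPM (-1.19), while *Flt3* (-0.22, limma adjusted p = 0.0723) and *Il2rg* (-0.32, adjusted p = 0.0565) did not pass. Of the partner chains that join gp130, *Lifr*, the LIF receptor, fell from 20.5 and 20.4 to 11.1 and 9.46 CPM (-0.93, adjusted p = 0.00088), *Il11ra1* was at -0.077, and *Osmr* was at 0 reads in all 4 LMPP libraries. By label, 0 genes of any of these lists passed in LMPPs, where for example *Tyk2* was at 0.097 and *Inpp5d* at 0.039.

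In IdHPCs 0 of the 37 genes tested in these pathway lists passed, beside 0.53% of all 12273 genes. *Stat3* (-0.66, limma adjusted p = 0.211), *Stat5a* (-0.11) and *Stat5b* (-0.41) were lower in both *Pcgf1*-KO libraries than in both controls, where the groups did not overlap for 46.9% of all genes and the median of all genes tested was 0.0056. All 8 adaptors and phosphatases had a lower mean, from -0.028 for *Shc1* to -1.46 for *Cbl* (adjusted p = 0.270), whose *Pcgf1*-KO libraries read 46.3 and 8.14 CPM. Without *Pcgf1*-KO 2, the library with 27.2% of reads on the last row, 6 of the 8 had a lower mean. *Sos1*, for example, had 28.2 and 29.4 CPM in controls and 30.8 and 16.8 CPM in *Pcgf1*-KO. Stromal feeder markers were higher in both *Pcgf1*-KO libraries (summed levels above), and the part of either in these values was not tested. *Pim1*, a STAT5 target kinase, had 395 and 451 CPM in controls and 244 and 255 CPM in *Pcgf1*-KO (-0.76, adjusted p = 0.116), and *Irf8* had 38.1 and 47.1 CPM in controls and 20.6 and 22.6 CPM in *Pcgf1*-KO (-0.94, adjusted p = 0.104). Neither passed, and their groups did not overlap, as for 46.9% of all genes. *Osmr*, the oncostatin M receptor chain, was at 10.2 to 16.2 CPM in IdHPC libraries, and the part of the stromal feeder markers in these values was not tested.

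The ligands were mostly near the floor. Of 10 ligand genes, *Csf1* and *Osm* were tested in both tables, and *Il3* was at 0 reads in all 8 libraries. *Csf2*, *Csf3*, *Il5* and *Il6* reached at most 0.221 CPM in any library. *Csf1*, which encodes M-CSF and is made by stromal cells, had 30.8 and 20.7 CPM in control IdHPCs and 64.1 and 42.4 CPM in *Pcgf1*-KO IdHPCs (1.02, SE 0.28, limma adjusted p = 0.127), against 3.33 to 4.46 CPM in LMPPs. The summed level of the stromal feeder markers was likewise higher in the *Pcgf1*-KO IdHPC libraries and lower in LMPPs, where *Pdgfrb* (35.1 to 56.8 CPM) and *Thbs1* (27.4 to 39.7 CPM) were nevertheless present, and the part of the list in the *Csf1* values was not tested.

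The genes whose levels ran most like those of the receptor genes were sought over all 8 libraries by the root mean square distance of log2(CPM + 1), centred on its mean within each table, among 11247 genes. *Csf2rb* lay nearest to *Gm15760* and *Pan2* (distances 0.030 and 0.035), *Csf2ra* to *Ccdc88b* and *Arhgap4* (0.055 and 0.069), *Il3ra* to *Mir17hg* (0.066) and *Csf2rb2* to *Dis3l2* and *Grk4* (0.077 and 0.078). *Il6ra* lay nearest to *Tnf* and *Mmp15* (0.089 and 0.12), and *Il6st* to *Gda* and *Slfn10-ps* (0.074 and 0.13). With 4 libraries in each table these are descriptions of likeness only. *Csf1r* and *Csf3r* did not reach 1 CPM in IdHPCs and were left out.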

How the data were processed

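RNA was measured in 8 mouse libraries (2 cell types, control and *Pcgf1*-KO, 2 replicates each), grouped by GEO's labels. Per the labels and methods, the authors prepared poly(A) libraries, aligned reads to mm9 (the methods name HISAT2 and the submitters' processing notes TopHat2 2.0.13), counted with Rsubread and computed CPM with edgeR. The deposited CPM values stand per exon row (284716 rows per table), and the 2 tables were normalized separately.

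Rows identical to the row before (37.4%, same symbol, equal in all 8 libraries) were dropped and the rest summed per symbol. Every CPM value was a whole multiple of 1 read (100% within 1e-06), giving 9618849 to 25302206 reads per library and a floor of 3 reads (0.086 to 0.227 CPM). Counts cover counting error only, and a read that spans exons may be counted on more than 1 row. A library's share on the last row used genes with 5 or more rows and 200 or more reads in every library of a table.

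Each table was tested alone with limma 3.58.1 (R 4.3.3, mean-variance trend) on log2(CPM + 1), over genes with at least 1 CPM in 1 or more of 4 libraries, with Benjamini-Hochberg adjustment at 0.05. All folds are on the log2(CPM + 1) scale, which understates low genes. Alternatives were edgeR 4.0.16 and DESeq2 1.42.0 on recovered reads, other filters, pseudocounts and scaling, single libraries left out (the lone library of a group is then assumed to vary like the other group) and a replicate block. The fits were tested on simulated counts.

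The receptor genes and all gene lists were chosen with earlier results of these data known. Named were all 8 receptor genes, list genes that passed, the extremes of each pathway list (not of the marker lists), the culture cytokine receptors and the 2 nearest genes of each receptor gene. Of the listed symbols, *Spi1* and *Adgre1* were found as *Sfpi1* and *Emr1*, and *Ly6g* was not matched. A few genes that this rule or the pathway lists would include are not reported here and are left out of the list counts. Gene positions and exon lengths are from GENCODE vM1 on NCBIM37 (mm9). Same-numbered IdHPC libraries deviated together only weakly (r = 0.15 across 12273 genes, which are not replicates), and LMPP libraries more strongly (r = 0.71 across 12153 genes), where the number coincides with the split by reads on *Pcgf1* exons 2 to 7. With 2 pairs each, the numbers were not taken as pairs.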

Additional observations from a re-analysis of the deposited data

Results flagged for a closer look

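Among the 36 genes of the pathway lists tested in both tables, 7 (19.4%) were lower in both *Pcgf1*-KO IdHPC libraries than in both controls and higher in both LMPP libraries without reads on *Pcgf1* exons 2 to 7 than in both with reads, or the reverse, beside 11.4% of all 11248 genes tested in both. *Jak3* was at -0.41 in IdHPCs and 0.48 in LMPPs, *Stat3* at -0.66 and 0.31, *Stat5a* at -0.11 and 0.46, *Stat5b* at -0.41 and 0.47, and *Grb2* at -0.092 and 0.089. *Socs2* (0.12 and -0.59) and *Klf4* (0.57 and -1.09) ran the other way. None passed in IdHPCs, the LMPP contrast rests on reads and not on labels, and the difference between the cell types was not tested. No receptor gene met this rule, which only *Il6ra* could have met, since the IdHPC groups of the other tested receptor genes overlapped. By the sign of the mean difference alone, *Il6ra* (0.76 and -0.21), *Il6st* (0.18 and -0.54) and *Csf2rb* (-0.047 and 0.088) ran opposite ways. *Csf2ra*, *Il3ra* and *Csf2rb2* did not.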

How the results depend on the processing

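Fits with 1 library left out take their spread from the remaining pair and are weak evidence that a call holds or is lost. Depth limits *Csf1r* and *Csf3r* in IdHPCs, where they had 3 to 27 reads a library and were not tested. The number of receptor genes called stayed at 0 in IdHPCs and in LMPPs by label under all 15 alternatives of each. In IdHPCs the 65 genes called over the table became 669 with a replicate block, 0 with no filter on low values (1996 at an unadjusted p under 0.05), 124 by edgeR's quasi-likelihood test, 610 by edgeR's exact test, 494 by DESeq2, 3 without the last row and 14 to 825 with 1 library left out (14 without control 2, 825 without *Pcgf1*-KO 1, 230 without *Pcgf1*-KO 2). In LMPPs by label the replicate block gave 3 genes and every other setting 0. No paired analysis was possible for the contrast by reads because the replicate number equals the split.

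In that contrast the 2089 genes became 1137 without the last row and 1291 to 1947 with 1 library left out, the lowest without control 2. Of the 4 receptor genes called, 2 were called with no mean-variance trend, by DESeq2 and with the label as a second term (an alternative chosen after seeing the data), 1 without the last row, and 2 to 3 with 1 library left out (3 without *Pcgf1*-KO 1, 2 without each of the others). *Csf1r* passed in all 15 alternatives, *Il6st* in 14, *Il3ra* in 8 and *Csf2ra* in 7. The cause of these losses was not tested.

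Signs turned only for differences that were not called. In IdHPCs *Csf2rb2* was 0.0035 with a pseudocount of 0.1 and *Il6st* -0.054 without the last row. In LMPPs by label *Csf1r* was 0.012, 0.0084, 0.0081 and 0.0037 by edgeR's quasi-likelihood test, edgeR's exact test, DESeq2 and without the last row. With 1 library left out, differences in IdHPCs ran from -0.72 to 0.080 for *Csf2ra*, -0.16 to 0.067 for *Csf2rb*, -0.28 to 0.28 for *Csf2rb2*, -0.49 to 0.15 for *Il3ra* and -0.49 to 0.84 for *Il6st*. In LMPPs by label they ran from -0.65 to 0.60 for *Csf1r*, -0.16 to 0.22 for *Csf2ra*, -0.17 to 0.052 for *Csf2rb*, -0.34 to 0.0042 for *Csf2rb2*, -0.12 to 0.15 for *Csf3r*, -0.28 to 0.12 for *Il3ra*, -0.32 to 0.18 for *Il6ra* and -0.28 to 0.37 for *Il6st*, and by reads from -0.0072 to 0.18 for *Csf2rb*.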
